A study of Mus musculus with 4 samples.

Results

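Genes of the cell division cycle were examined in regulatory T cells that lack the transcription factor Helios and in wild-type cells. The list names 50 genes by symbol, sorted by role into 15 that control G1, 13 of DNA replication and 22 of mitosis. Of these, 48 were in the deposited table of 16383 genes, all 48 passed the filter on low values, and Ccnd1 and Cdkn2d were not analysed here. The libraries labelled Helios KO come from mice of the Ikzf2-/- genotype, Ikzf2 being the gene that encodes Helios, and they are compared with libraries labelled WT. All are CD4+CD25+ cells, a surface phenotype that enriches regulatory T cells (Tregs), from the spleens of mice aged 7 weeks, with 2 RNA-seq libraries per genotype. The labels name neither the strain nor the deleted exons nor whether each library is a separate mouse, so the p-values reflect no more than the spread between these libraries, which may be technical.

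A resting T cell stays in a state with unreplicated DNA until D-type cyclins with CDK4 or CDK6 phosphorylate the retinoblastoma protein, which frees E2F factors to switch on cyclin E and the replication genes. Cells in S phase then make nucleotides and fire origins licensed by the MCM helicase. Cyclin A and cyclin B with CDK1, followed by the spindle and chromosome segregation machinery, carry the cell through mitosis, and the mitotic genes are transcribed late in the cycle. Tregs are known as a T cell population with a dividing fraction in healthy mice, and interleukin 2 and CD28 signals sustain that division. In bulk RNA, more dividing cells and more transcript per dividing cell cannot be told apart.

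Values are the read numbers the authors normalised and scaled to the median length of a gene’s transcripts, and they are given here as normalised reads per kb. The libraries held 42157138 to 52543073 reads recovered from those values. Ikzf2 itself had 4396 and 3104 normalised reads per kb in the Helios KO libraries, against 5282 and 7864 in the WT libraries, lower in both knockout libraries but not called (limma adjusted p = 1.00, as for all genes named here). Because the deleted exons are not named, these reads check the genotype labels only in part. The T cell markers were abundant in all 4 libraries, with summed levels of 338908 and 300216 in Helios KO and 331047 and 302790 in WT over 6 genes. Helios KO replicate 2 stood apart. It held transcripts of other blood cells, since all 7 red pulp macrophage markers and all 7 neutrophil markers were at least 4-fold above every other library there. The macrophage markers summed to 879 and 57086 in Helios KO and to 1658 and 2580 in WT, and the neutrophil markers to 53.9 and 24124 in Helios KO and to 76.9 and 2.47 in WT. The 5 Treg markers were lower in that library, with sums of 154128 and 105993 in Helios KO, against 136977 and 131407 in WT. The median of each role group is therefore also given without this library.

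No cell cycle gene was called different between Helios KO and WT Tregs. Genes were tested with limma on log2(value + 1), and 0 of 48 members had a Benjamini-Hochberg adjusted p under 0.05, where the same rule called 0 of 11571 genes tested (0% of genes). At an unadjusted p under 0.05 there were 0 members and 386 genes overall (3.34%), and limma-voom on recovered reads gave 0 called genes too, with 386 at that unadjusted p. The median log2 fold change, Helios KO over WT, was 0.07 for the G1 control genes, 0.11 for the replication genes and 0.26 for the mitosis genes, beside -0.0014 for all tested genes. Both knockout libraries lay above both WT libraries in 7 members, against 12.5% of tested genes, and below both in 2 members, against 15.7%. With 2 libraries per group, an exact permutation test of one gene cannot give a two-sided p below 0.333.

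**Figure D1:**
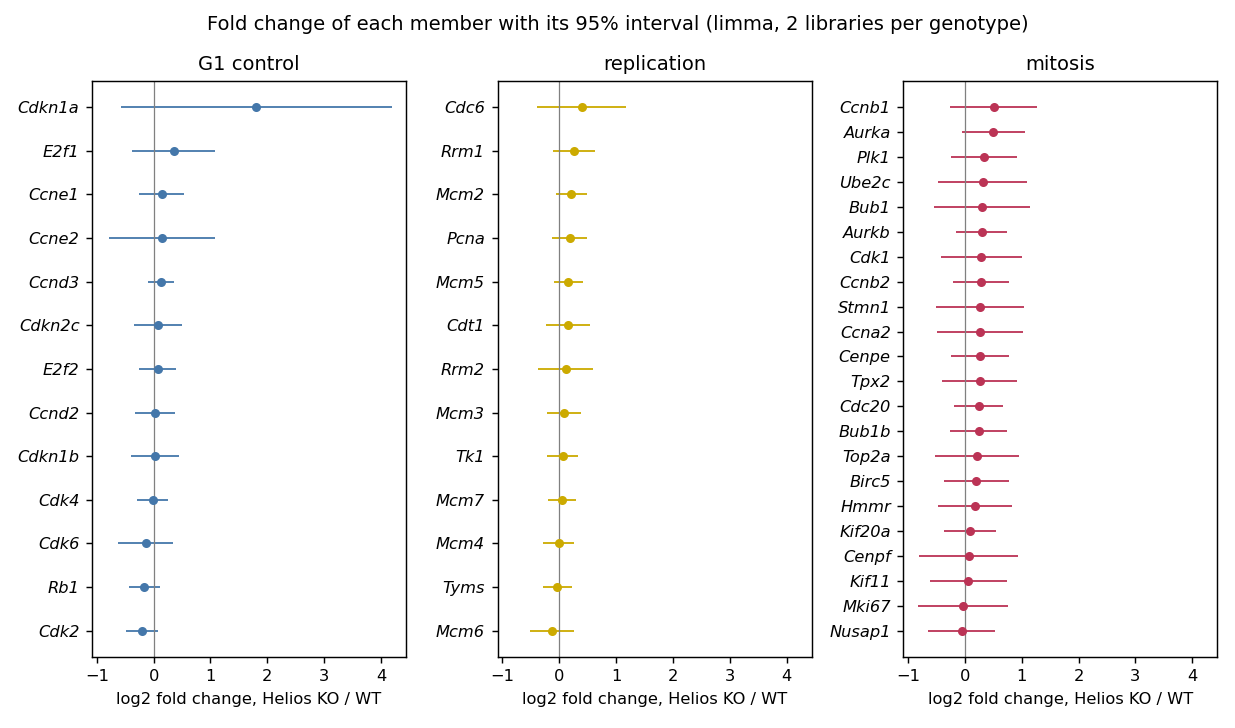
Log2 fold change of each of the 48 members, Helios KO over WT, on the horizontal axis, with points at the limma estimate and bars for its 95% interval from 2 libraries per genotype, in 3 panels by role. The interval of every member includes 0, and Cdkn1a has the widest one, reaching 4.19.

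The mitosis genes moved together from library to library within each genotype. All 22 were higher in replicate 2 than in replicate 1 among the Helios KO libraries, as were 6047 of 11571 tested genes. All 22 were also higher in replicate 2 than in replicate 1 among the WT libraries, as were 44.3% of tested genes. Both conditions together held in 23.7% of all tested genes. Between the knockout libraries the 22 genes differed by 0.21 to 0.72 on the log2 scale, with a median of 0.36, and between the WT libraries by 0.12 to 0.82, with a median of 0.52. The median over all tested genes was 0.02 between the knockout libraries and -0.03 between the WT libraries. The replicate numbers come from the sample titles, and no label says that they mark a shared day or litter.

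The genotypes interleaved. In 16 of the 22 mitosis genes the order from high to low was Helios KO replicate 2, WT replicate 2, Helios KO replicate 1, WT replicate 1, an order found in 5.15% of tested genes. WT replicate 1 was the lowest library in 20 of 22, against 19.6% of tested genes, and Helios KO replicate 2 the highest in 18 of 22, against 32% of tested genes. In 19 of 22, Helios KO replicate 1 lay between the WT libraries, which occurred in the same direction in 15.8% of tested genes. The sum over the 22 genes was 26692 ± 4778 normalised reads per kb in Helios KO and 22948 ± 5769 in WT (SD, n = 2 each), and WT replicate 2 held 1.43 times the sum of WT replicate 1. The difference between the genotype means was smaller than the spread within either genotype. The median log2 fold change of the mitosis genes was 0.03 when Helios KO replicate 2 was left out and 0.44 when Helios KO replicate 1 was left out. Leaving out WT replicate 1 gave 0.01 and leaving out WT replicate 2 gave 0.48.

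**Figure D2:**
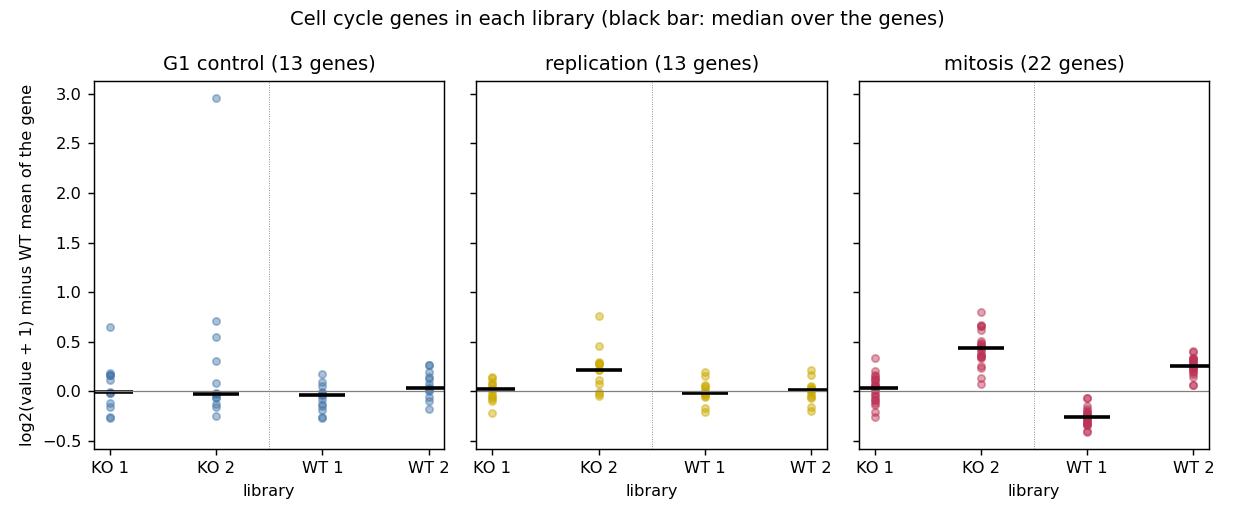
Each point is 1 gene in 1 library, as log2(value + 1) minus the mean of that gene over the WT libraries, in 3 panels by role with knockout libraries (KO 1, KO 2) left of WT libraries (WT 1, WT 2) and black bars for the median over genes. The mitosis medians are 0.03 and 0.44 in Helios KO and -0.26 and 0.26 in WT, while the G1 control medians stay between -0.04 and 0.04.

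The proliferation markers show the pattern gene by gene. Mki67 (ENSMUSG00000031004, chromosome 7, 135689784 to 135716361, mm10), which encodes the Ki-67 protein that coats mitotic chromosomes, had 711 and 822 normalised reads per kb in Helios KO libraries, against 590 and 1040 in WT libraries. The WT values enclosed both knockout values, and the log2 fold change was -0.04 (SE 0.30, 95% interval -0.83 to 0.76). Top2a, the topoisomerase that untangles sister chromatids, had 5725 and 6985 in Helios KO, against 4338 and 6943 in WT, a log2 fold change of 0.20 (SE 0.27). WT replicate 1 alone was low for Top2a, and the other 3 libraries lay within a narrower range. These intervals span a rise or a fall of Mki67 by more than 1.5-fold, so a change of that size was not detectable with 2 libraries per genotype.

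The cyclins and kinase that drive mitotic entry followed the same library order. Cdk1, the mitotic kinase, had 1336 and 1672 normalised reads per kb in Helios KO libraries, against 971 and 1546 in WT libraries. Ccna2, its S and G2 phase cyclin, had 945 and 1308 in Helios KO, against 744 and 1161 in WT. Ccnb1, a mitotic cyclin, had 259 and 391 in Helios KO, against 185 and 271 in WT, and its log2 fold change of 0.51 (SE 0.30) was the largest of the mitosis genes. For Cdk1, Ccna2 and Ccnb1 alike, Helios KO replicate 1 fell between the WT libraries. Ccnb2, the other B-type cyclin of the list, had 721 and 957 in Helios KO, against 620 and 756 in WT.

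Aurka was the one mitosis gene whose genotypes did not overlap. Both knockout libraries were higher in 4.55% of mitosis genes, against 12.5% of tested genes, and lower in 0%, against 15.7%. Aurka encodes the Aurora A kinase of the spindle poles (ENSMUSG00000027496, chromosome 2, 172356190 to 172370535) and had 427 and 538 normalised reads per kb in Helios KO libraries, against 293 and 391 in WT libraries. Its log2 fold change of 0.50 (SE 0.22, 95% interval -0.06 to 1.06) was not called, and it was 0.33 without Helios KO replicate 2 and 0.29 without WT replicate 1. Tpx2, the protein that activates Aurora A on the spindle, had 358 and 441 in Helios KO, against 268 and 412 in WT, so its genotypes overlapped. Aurkb, the kinase of the chromosomal passenger complex, had 1572 and 1983 in Helios KO, against 1273 and 1626 in WT. Birc5, which encodes the passenger subunit survivin, had 461 and 575 in Helios KO, against 379 and 529 in WT. Both passenger genes had the order of the 16 genes above. Plk1, a kinase of mitotic entry and the spindle, had 1109 and 1406 in Helios KO, against 820 and 1189 in WT.

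Checkpoint and exit genes had the same shape. Bub1b, the spindle checkpoint protein BubR1, had 2911 and 3768 normalised reads per kb in Helios KO libraries, against 2450 and 3219 in WT libraries. Bub1, a checkpoint kinase, had 993 and 1638 in Helios KO, against 880 and 1214 in WT. Cdc20, the activator of the anaphase-promoting complex, had 1537 and 2092 in Helios KO, against 1455 and 1585 in WT, and Helios KO replicate 2 alone was high. Ube2c, the ubiquitin-conjugating enzyme of that complex, had 311 and 503 in Helios KO, against 266 and 381 in WT. None of these genes was called, and their log2 fold changes lay between 0.24 and 0.31. When Helios KO replicate 2 was left out, that of Bub1 was -0.06 and that of Ube2c -0.03.

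Kinetochore, motor and spindle genes completed the group. Cenpe, a kinetochore motor, had 1644 and 1896 normalised reads per kb in Helios KO libraries, against 1233 and 1770 in WT libraries. Cenpf, a kinetochore protein of G2 and mitosis, had 234 and 342 in Helios KO, against 205 and 356 in WT. Kif11, the motor that pushes spindle poles apart, had 429 and 546 in Helios KO, against 369 and 582 in WT. Cenpf and Kif11 were highest in WT replicate 2, as were Mki67 and Nusap1. Kif20a, a motor of cytokinesis, had 405 and 512 in Helios KO, against 410 and 448 in WT, and Nusap1, a spindle microtubule protein, had 477 and 627 in Helios KO, against 481 and 677 in WT. These were the 2 genes whose lowest library was Helios KO replicate 1. Hmmr, a spindle-associated protein, had 495 and 654 in Helios KO, against 408 and 616 in WT, and Stmn1, a microtubule-destabilising protein, had 254 and 413 in Helios KO, against 231 and 315 in WT. Each mitosis gene rested on 177 to 5958 recovered reads per library.

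Marker sums of several other blood cells were highest in Helios KO replicate 2. In Helios KO the 7 macrophage markers summed to 879 in replicate 1 and 57086 in replicate 2, the 7 neutrophil markers to 53.9 and 24124, the 4 erythroid markers in the table to 226 and 8034, and the 5 NK cell markers to 1429 and 11199. In WT the macrophage markers summed to 1658 in replicate 1 and 2580 in replicate 2, the neutrophil markers to 76.9 and 2.47, the erythroid markers to 525 and 124, and the NK cell markers to 1533 and 2476. Of the NK cell markers, Gzmb was nearly as high in WT replicate 2 (1718) as in Helios KO replicate 2 (2258). The dendritic markers summed to 187 and 849 in Helios KO, against 160 and 168 in WT. Smaller differences were seen in plasma cell markers (11031 and 16245 in Helios KO, 9345 and 9022 in WT) and B cell markers (1011 and 2625 in Helios KO, 1975 and 1522 in WT). The CD8 markers Cd8a and Cd8b1 had sums of 762 and 765 in Helios KO, against 725 and 676 in WT, mostly from Cd8b1. Cd8a alone was highest in Helios KO replicate 2, with 19.4 and 69.2 in Helios KO, against 20.2 and 17.6 in WT. Elane and Mpo, which encode neutrophil granule proteins, were at 0 in both WT libraries, and Elane was at 0 in Helios KO replicate 1. The part of these cells in the mitosis values of Helios KO replicate 2 was not tested.

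**Figure D3:**
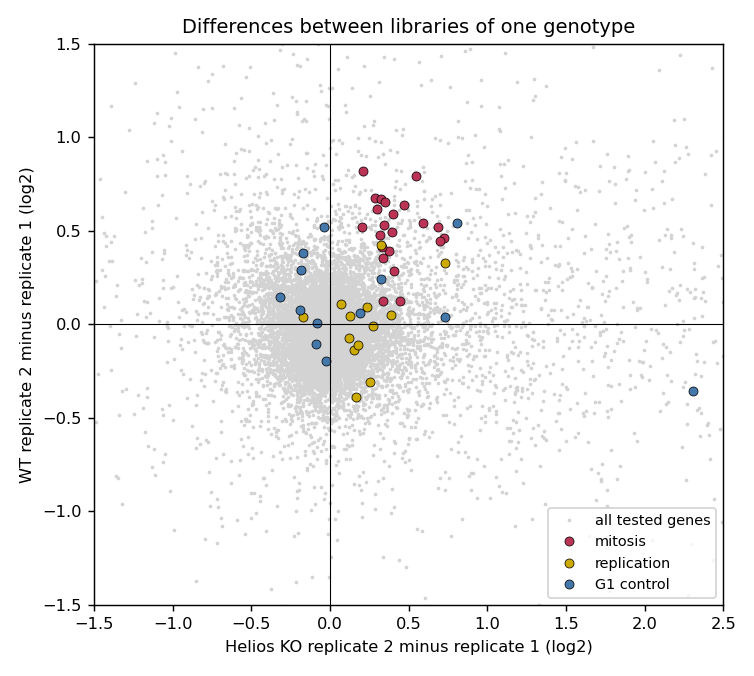
Each point is a gene, with the log2 difference of replicate 2 minus replicate 1 in Helios KO on the horizontal axis and in WT on the vertical axis, for all tested genes (grey, 681 of them outside the axes) and the members in colour. All 22 mitosis genes lie above 0 on both axes, whereas replication genes lie on both sides of the horizontal line and Cdkn1a stands far right at 2.30.

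The promoters of the mitosis genes also share letters that the list did not use. Many late cell cycle genes are known to carry a cell cycle genes homology region (CHR, letters TTTGAA), bound by the MuvB protein complex, beside CCAAT boxes bound by NF-Y, while many replication genes carry E2F sites. Both strands of RefSeq windows of 300 bases (250 before to 50 after the start, assembly GRCm38.p6) were searched for TTTGAA, for CCAAT, and for the E2F words TTTCCCGC, TTTCGCGC, TTTGCCGC and TTTGGCGC. Windows were available for 17 mitosis, 12 replication and 10 G1 control genes of those tested. TTTGAA was present in 12 of 17 mitosis windows (70.6%), 1 of 13 replication windows (7.69%) and 1 of 14 G1 control windows (7.14%), beside 12% of the 11733 windows of tested genes. All 12 mitosis windows with TTTGAA also held CCAAT, a combination found in 4.74% of windows of tested genes. CCAAT alone is short and common, at 37.4% of those windows, and it was present in 15 of 17 mitosis windows. An E2F word was present in 6 of 13 replication windows (46.2%), 2 of 14 G1 control windows and 1 of 17 mitosis windows, beside 4.02% for tested genes. A match of letters is a description and no evidence of binding in these cells.

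The sequences below are examples of that contrast, from 3 mitosis genes that carry TTTGAA beside CCAAT and 1 replication gene with E2F words. They hold the most searched words of their groups, 6 to 8 in the mitosis genes and 5 in Mcm6, and are not typical windows. Each is the 250 bases before the start in GRCm38.p6, 5′ to 3′ on the strand of the gene, and capitals mark the searched letters on either strand (the CHR, CCAAT and E2F letters or their reverse complements). The regions are chr10:69352913-69353162 (minus) for Cdk1, chr11:99024190-99024439 (minus) for Top2a, chr2:164769679-164769928 (plus) for Ube2c and chr1:128359706-128359955 (minus) for Mcm6. In Mcm6 an E2F word and the reverse complement of another overlap, and in Ube2c a CCAAT and an ATTGG overlap.
Cdk1: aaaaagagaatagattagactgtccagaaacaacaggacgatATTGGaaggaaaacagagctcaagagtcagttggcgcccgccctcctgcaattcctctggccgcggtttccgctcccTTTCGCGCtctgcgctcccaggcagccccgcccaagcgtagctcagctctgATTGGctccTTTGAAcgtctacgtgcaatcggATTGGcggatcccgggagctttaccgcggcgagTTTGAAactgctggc
Top2a: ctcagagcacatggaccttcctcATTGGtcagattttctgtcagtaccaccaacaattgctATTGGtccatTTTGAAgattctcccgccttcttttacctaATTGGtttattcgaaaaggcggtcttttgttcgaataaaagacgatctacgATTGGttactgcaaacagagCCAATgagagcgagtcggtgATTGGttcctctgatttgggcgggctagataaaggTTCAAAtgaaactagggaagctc
Ube2c: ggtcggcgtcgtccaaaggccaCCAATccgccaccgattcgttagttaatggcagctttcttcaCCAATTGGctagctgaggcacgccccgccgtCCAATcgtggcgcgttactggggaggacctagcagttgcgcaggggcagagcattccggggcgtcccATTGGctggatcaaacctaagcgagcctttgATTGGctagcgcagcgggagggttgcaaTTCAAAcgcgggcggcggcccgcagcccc
Mcm6: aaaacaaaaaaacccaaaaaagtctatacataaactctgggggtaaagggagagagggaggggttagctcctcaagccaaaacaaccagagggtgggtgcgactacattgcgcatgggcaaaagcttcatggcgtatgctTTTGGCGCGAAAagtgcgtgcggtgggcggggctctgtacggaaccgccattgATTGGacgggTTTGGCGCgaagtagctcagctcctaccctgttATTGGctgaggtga
Cdk1 and Top2a carry TTTGAA letters both near the start and farther upstream, and the Cdk1 window holds the only E2F word among the mitosis windows. Mcm6 carries 3 E2F words, no TTTGAA, and ATTGG at 2 positions.

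**Figure D4:**
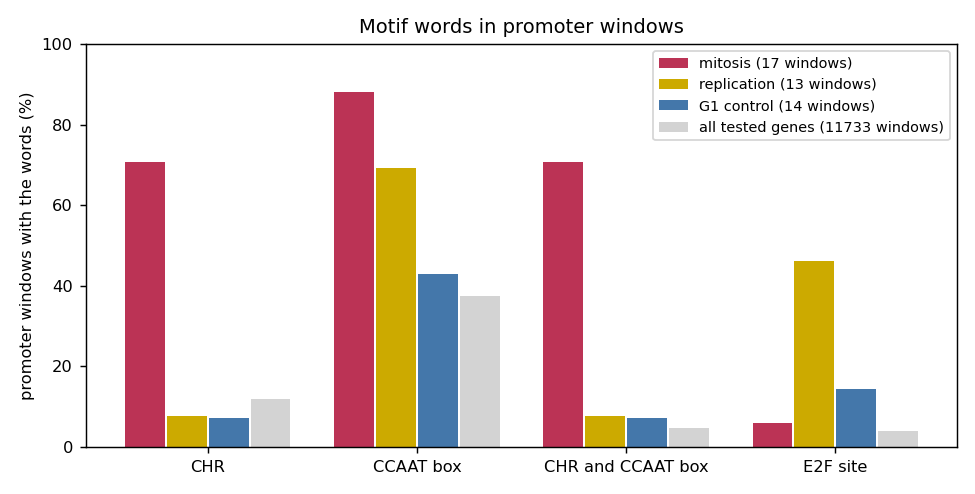
Percentage of RefSeq promoter windows that hold the CHR letters, the CCAAT letters, both, or an E2F word, with bars from 0 for mitosis, replication, G1 control and all tested genes. The CHR letters stand at 70.6% of mitosis windows against 12% of windows of tested genes, and E2F words at 46.2% of replication windows against 4.02%.

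Replication genes varied less between libraries than mitosis genes, and their library orders were more mixed. The library order of the 16 mitosis genes was found in 3 of 13 replication genes (Mcm7, Cdc6 and Rrm2), against 5.15% of tested genes. The highest of the 4 libraries exceeded the lowest by a median factor of 1.27 over the 13 replication genes and 1.63 over the 22 mitosis genes. The WT libraries differed by a median of 0.04 in replication genes, with replicate 2 higher in 7 of 13, against 44.3% of tested genes. The knockout libraries differed by 0.18, with replicate 2 higher in 12 of 13, against 6047 of 11571 tested genes. The sum over the 13 replication genes was 89177 ± 8864 normalised reads per kb in Helios KO and 83706 ± 2612 in WT (SD, n = 2 each). Helios KO replicate 2 was the highest library in 10 of 13 replication genes, against 32% of tested genes. The median log2 fold change was 0.02 without that library and 0.22 without Helios KO replicate 1.

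The MCM helicase, which unwinds DNA at replication forks, was split among its subunits. Mcm2 (ENSMUSG00000002870, chromosome 6, 88883474 to 88898780) had 16245 and 18047 normalised reads per kb in Helios KO libraries, against 15517 and 14094 in WT libraries. Mcm5 had 3653 and 3979 in Helios KO, against 3500 and 3333 in WT. In these 2 subunits both knockout libraries were above both WT libraries, against 12.5% of tested genes. Their log2 fold changes were 0.21 (SE 0.11) and 0.16 (SE 0.10), neither called. Mcm6 went the other way in part, with 7944 and 8927 in Helios KO, against 10542 and 8048 in WT (log2 fold change -0.13, SE 0.16). Mcm3 had 8929 and 10792 in Helios KO, against 9321 and 9252 in WT, Mcm4 had 15105 and 17063 in Helios KO, against 16780 and 15573 in WT, and Mcm7 had 7599 and 8313 in Helios KO, against 7571 and 7807 in WT. The subunits that form one ring therefore showed no common shift by genotype. Every subunit was higher in Helios KO replicate 2 than in Helios KO replicate 1, as were 6047 of 11571 tested genes. Helios KO replicate 2 was the highest library for each subunit but Mcm6, against 32% of tested genes.

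Licensing factors and nucleotide enzymes were also uncalled. Cdc6, which loads the helicase on origins, had 201 and 334 normalised reads per kb in Helios KO libraries, against 176 and 221 in WT libraries, with the largest log2 fold change of the group at 0.39 (SE 0.31). Cdt1, its partner in loading, had 3294 and 3934 in Helios KO, against 3603 and 2913 in WT. Pcna, the sliding clamp of DNA polymerases, had 2569 and 3028 in Helios KO, against 2379 and 2541 in WT (log2 fold change 0.18, SE 0.12). Pcna and Rrm1 did not overlap between genotypes, and in Rrm1 the separation of Helios KO replicate 1 from WT was small. With Mcm2 and Mcm5, these were the 4 of 13 replication genes (30.8%) higher in both knockout libraries, against 12.5% of tested genes. No replication gene was lower in both, against 15.7% of tested genes. Rrm1, the large subunit of ribonucleotide reductase, had 8507 and 11136 in Helios KO, against 7977 and 8274 in WT (log2 fold change 0.26, SE 0.15). Without Helios KO replicate 2 the difference of Rrm1 from the WT mean was 0.07 and that of Pcna 0.06. Rrm2, the S phase subunit of the same enzyme, had 4524 and 5673 in Helios KO, against 4043 and 5422 in WT, in the order typical of mitosis genes. The thymidylate enzymes Tyms and Tk1 were flat, with 2298 and 2409 in Helios KO, against 2323 and 2510 in WT for Tyms, and 2040 and 1811 in Helios KO, against 1822 and 1872 in WT for Tk1.

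G1 control genes showed no common shift by genotype, and their library orders were mixed. The library order of the 16 mitosis genes was found in 3 of 13 G1 control genes, against 5.15% of tested genes, and WT replicate 1 was the lowest library in 8 of 13, against 19.6% of tested genes. Replicate 2 was above replicate 1 in both genotypes in 4 of 13, against 23.7% of tested genes. The median log2 fold change of 0.07 moved to -0.0017 when Helios KO replicate 2 was left out, to -0.03 when Helios KO replicate 1 was, to -0.04 when WT replicate 1 was and to 0.13 when WT replicate 2 was. Ccnd2 (ENSMUSG00000000184, chromosome 6, 127125162 to 127152193), a D-type cyclin induced by mitogens, had 45439 and 36435 normalised reads per kb in Helios KO libraries, against 37932 and 41950 in WT libraries. The knockout values enclosed the WT values, with a log2 fold change of 0.03 (95% interval -0.33 to 0.38). Ccnd3, the D-type cyclin prominent in lymphocytes, had 15413 and 14586 in Helios KO, against 13711 and 13765 in WT, a small separation by a log2 fold change of 0.13 (SE 0.09).

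The kinases and their target differed little. Cdk4 had 11751 and 11529 normalised reads per kb in Helios KO libraries, against 12597 and 10987 in WT libraries, and Cdk6 had 1195 and 1162 in Helios KO, against 1083 and 1557 in WT. Both partners of the D-type cyclins thus overlapped between genotypes. Cdk2, the kinase partner of cyclin E, had 1334 and 1253 in Helios KO, against 1546 and 1436 in WT, and Rb1, the retinoblastoma gene, had 10004 and 11417 in Helios KO, against 11734 and 12253 in WT. These were the 2 members lower in both knockout libraries, with log2 fold changes of -0.20 (SE 0.11) and -0.17 (SE 0.11), neither called.

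Among CDK inhibitors, Cdkn1a stood out in one library. Cdkn1a (ENSMUSG00000023067, chromosome 17, 29090976 to 29100727) encodes p21, an inhibitor induced by p53, and had 87.5 and 436 normalised reads per kb in Helios KO libraries, against 62.6 and 48.7 in WT libraries, from 89 and 516 recovered reads in Helios KO and 78 and 61 in WT. The log2 fold change of 1.81 (SE 0.86, 95% interval -0.58 to 4.19) was the largest of all members and was not called. It was 0.65 when Helios KO replicate 2 was left out and 2.96 when Helios KO replicate 1 was. Either fit leaves a single knockout library and takes it to vary as WT does. The high value is in the library with macrophage and neutrophil transcripts, whose part in it was not tested. Cdkn1b, which encodes p27, the inhibitor that holds T cells in quiescence, had 1063 and 945 in Helios KO, against 861 and 1123 in WT, and Cdkn2c, which encodes the CDK4 and CDK6 inhibitor p18, had 600 and 529 in Helios KO, against 483 and 592 in WT. For both inhibitors WT replicate 1 was the lowest library and the genotypes overlapped.

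E2F and cyclin E genes, which act at the G1 to S transition, resembled the mitosis genes in part. Ccne1 had 1368 and 1711 normalised reads per kb in Helios KO libraries, against 1274 and 1508 in WT libraries, and Ccne2 had 465 and 814 in Helios KO, against 462 and 673 in WT. E2f1 had 195 and 324 in Helios KO, against 194 and 200 in WT. Ccne1, Ccne2 and E2f1 were the 3 G1 control genes with the order of the 16 mitosis genes, although in E2f1 the other 3 libraries were nearly level. E2f2 had 1099 and 964 in Helios KO, against 955 and 1008 in WT, and overlapped. For E2f1 the log2 fold change of 0.35 became -0.02 without Helios KO replicate 2.

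**Figure D5:**
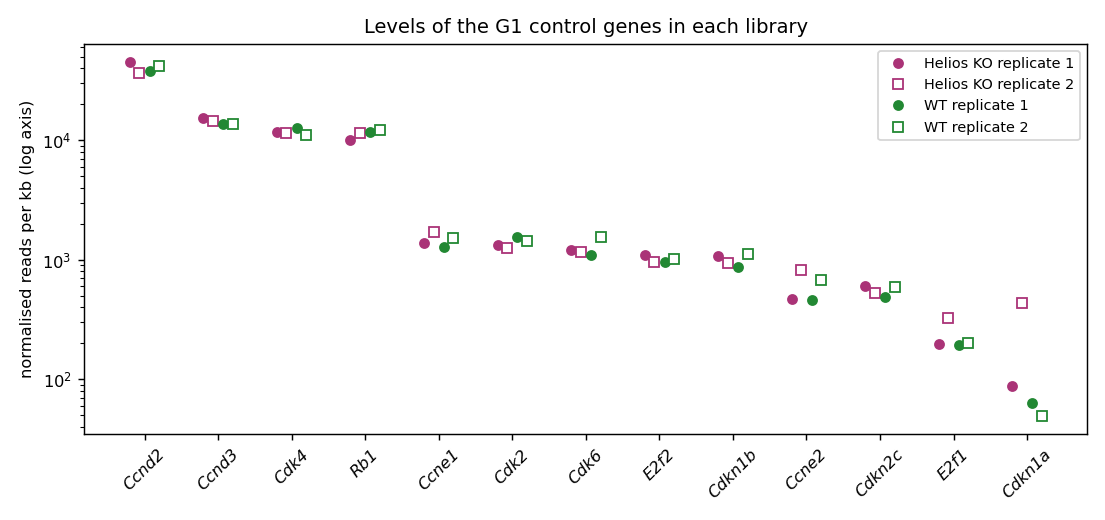
Normalised reads per kb, on a log axis, of the 13 G1 control genes in each library, with Helios KO libraries left of WT libraries and genes sorted by their mean. Ccnd2 is the highest near 40439 on average, and Cdkn1a shows 436 in Helios KO replicate 2 against 48.7 to 87.5 in the other libraries.

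The order of levels between genes depends on the transcript length used for scaling. On the deposited scale the means over the 4 libraries were 40439 normalised reads per kb for Ccnd2, 16130 for Mcm4, 15976 for Mcm2, 14369 for Ccnd3 and 11716 for Cdk4. The median annotated transcript of Ccnd2 has 805 bases and its longest has 6330. Per kb of the longest transcript, a scale chosen after the data were seen, Cdk4 came first with 5273, followed by Ccnd2 with 5143 and Mcm6 with 3560. Rb1 had 11352 on the deposited scale and 998 per kb of its longest transcript. The ratio of Ccnd2 to Ccnd3 was 2.81 on the deposited scale and 1.62 on the other, so Ccnd2 was above Ccnd3 on both. Ratios between libraries for one gene do not depend on this length.

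Wider lists of 25 G1 control, 40 replication and 51 mitosis genes, of which 21, 40 and 49 were tested, held 0 genes called by limma or limma-voom. At an unadjusted limma p under 0.05 they held 1 G1 control gene (Rbl2) and 1 mitosis gene (Cdc25b), against 3.34% of all tested genes. In the 49 tested mitosis genes, replicate 2 was above replicate 1 in both genotypes in 39, against 23.7% of all tested genes. The median difference was 0.36 between the knockout libraries and 0.31 between the WT libraries. The median log2 fold change was 0.10 for these 49 genes, 0.07 for 40 replication genes and 0.04 for 21 G1 control genes. Rbl2, the pocket protein p130 of quiescent cells, had 16415 and 17482 normalised reads per kb in Helios KO libraries, against 21620 and 20529 in WT libraries, a log2 fold change of -0.31 (SE 0.10). Cdc25b, a phosphatase that activates CDK1, had 10127 and 9199 in Helios KO, against 11668 and 12471 in WT (log2 fold change -0.32, SE 0.10). Lin9, a MuvB subunit, had 430 and 495 in Helios KO, against 611 and 584 in WT (log2 fold change -0.37, SE 0.15). These 3 had the smallest p among genes with a lower mean in Helios KO, and neither they nor the following 3 were called. Espl1, which encodes separase, had 1373 and 1785 in Helios KO, against 1017 and 1330 in WT, Cks2, a subunit of CDK complexes, had 123 and 193 in Helios KO, against 88.3 and 108 in WT, and Gmnn, which encodes the licensing inhibitor geminin, had 1305 and 1541 in Helios KO, against 1194 and 1234 in WT.

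Some members carry uncertainty from the counting. The library preparation does not mark strand, and exons of 16 members overlap exons of a gene on the opposite strand, among them Rb1, Ccnd2, Ccnd3, Cdk4 and Cdkn1a, and 6 mitosis genes (Ccna2, Plk1, Ube2c, Cdc20, Nusap1 and Kif20a). Annotated pseudogenes named after the gene exist for 5 members, Ccnd3, Pcna, Tyms, Ccnb1 and Ccnb2. Pseudogenes under other names were not searched for, and the sources used here do not say how shared reads were assigned.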

How the data were processed

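Libraries were made from 5 ng of total RNA by full-length cDNA synthesis and Tn5 tagmentation, per the labels' protocols. Demultiplexing used bcl2fastq 2.17.1.14 and the genome build was mm10, per the submitters' processing notes. Aligner, counter and normalisation method: not given in the sources used here. Per the file headers, the authors deposited a signal per gene, namely normalised reads over the median transcript length in kb.

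All 16383 gene identifiers matched GENCODE M21 (GRCm38), which supplied coordinates and lengths. Multiplying by length and dividing by the value of 1 read gave whole reads (within 0.01) for 97.2% of 58026 nonzero values and for all 192 member values. The libraries of a group differed by more than sampling noise (chi-square per degree of freedom 100 in Helios KO and 28.8 in WT). Intervals cover the spread between libraries.

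limma 3.58.1 (R 4.3.3) was fitted to log2(value + 1) with genotype as the only term, trended robust variances, two-sided tests and Benjamini-Hochberg adjustment over the 11571 genes with at least 10 in at least 2 of 4 libraries. Fold changes are on that scale, which understates those of low genes. The fit was tested on simulated data. Alternatives changed pseudocount, filter, scaling, voom, library weights, replicate block, or left out 1 library. Values in every library were planned for the 5 highest and 3 smallest-p members per role and 17 fixed genes, with 3 genes per direction of the wider list, and values of the other members were added. Members and lists were chosen with earlier results of these data known.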

Additional observations from a re-analysis of the deposited data

How the results depend on the processing

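No member was called under another pseudocount, no filter, both rescalings, limma-voom, library weights or the replicate block, and each called 0 genes overall. The pseudocounts, filter, rescalings and limma-voom moved no group median beyond the spread between replicates. Library weights and the replicate block could not move a median. The weights came out equal within each genotype (0.80 in Helios KO and 1.24 in WT), and each block holds a library of each genotype. Leaving out 1 library gave 0 to 741 called genes, 741 when Helios KO replicate 1 was left out and 32 when Helios KO replicate 2 was, and 0 to 1 called G1 control genes (Cdkn1a). The median log2 fold change ranged from -0.044 to 0.13 for G1 control, from 0.024 to 0.22 for replication and from 0.01 to 0.48 for mitosis genes, and the cause was not tested. With limma-voom Mcm4 changed sign, to 0.0035.

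Of the 64 genes given with values, 39 changed sign when some library was left out, with these ranges of log2 fold change: Birc5 -0.038 to 0.44, Bub1 -0.058 to 0.66, Ccna2 -0.062 to 0.58, Ccnd2 -0.13 to 0.19, Ccne1 -0.019 to 0.30, Ccne2 -0.26 to 0.54, Cd4 -0.090 to 0.16, Cdk1 -0.049 to 0.62, Cdk4 -0.11 to 0.083, Cdk6 -0.40 to 0.12, Cdkn1b -0.16 to 0.22, Cdkn2c -0.071 to 0.22, Cdt1 -0.0012 to 0.31, Cenpe -0.0037 to 0.52, Cenpf -0.33 to 0.46, E2f1 -0.016 to 0.71, E2f2 -0.026 to 0.16, E2f4 -0.0050 to 0.17, Foxp3 -0.49 to 0.22, Hmmr -0.12 to 0.48, Il2ra -0.56 to 0.033, Kif11 -0.27 to 0.39, Kif20a -0.081 to 0.26, Lin37 -0.19 to 0.069, Lin54 -0.041 to 0.14, Mcm3 -0.057 to 0.22, Mcm4 -0.098 to 0.078, Mcm6 -0.32 to 0.065, Mcm7 -0.017 to 0.11, Mki67 -0.44 to 0.37, Nusap1 -0.31 to 0.19, Rbl1 -0.12 to 0.14, Rrm2 -0.098 to 0.33, Stmn1 -0.085 to 0.61, Tk1 -0.028 to 0.14, Top2a -0.13 to 0.54, Tpx2 -0.052 to 0.57, Tyms -0.093 to 0.019 and Ube2c -0.031 to 0.66. The mitosis genes above 0 numbered 20 of 22, beside 5746 of 11571 tested genes with all libraries. They numbered 13 when Helios KO replicate 2 was left out and 11 when WT replicate 1 was. Ikzf2 ranged from -1.09 to -0.52 and kept its sign throughout.

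The replicate numbers share no stated origin. The differences between replicates correlated at 0.106 between genotypes over 11571 genes, and with the replicate block 0 genes were called. Each replicate number holds a library of each genotype, so the block cannot change a fold change. The mitosis median of 0.26 under the block is therefore no check on the replicate numbers.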

Other observations

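Subunits of the complex that reads the CHR letters were measured in the wider list and are picked out here after their values were seen. In quiescent cells MuvB, made of Lin9, Lin37, Lin52, Lin54 and a histone-binding protein, joins p130 or p107 (Rbl2 or Rbl1) and E2f4 as a repressor, and in dividing cells it joins Mybl2 and Foxm1 as an activator. Of the repressor partners, Rbl2 lay lower in both Helios KO libraries, as did the shared subunit Lin9, while Rbl1 had 1418 and 1697 normalised reads per kb in Helios KO, against 1540 and 1543 in WT, and E2f4 had 6302 and 6163 in Helios KO, against 6254 and 5535 in WT. Lin37 had 2471 and 2435 in Helios KO, against 2790 and 2339 in WT, and Lin54 had 444 and 505 in Helios KO, against 464 and 450 in WT. Of the activator partners, Foxm1 had 907 and 941 in Helios KO, against 987 and 1033 in WT, and Mybl2 had 596 and 725 in Helios KO, against 560 and 599 in WT. Foxm1 was lower in both knockout libraries and Mybl2 overlapped. Of the wider G1 control list, 4 of 21 tested genes were lower in both, against 15.7% of all tested genes, so these are not set apart from the background. None was called by limma over all genes.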
